A study of Saccharomyces bayanus x Saccharomyces cerevisiae with 8 samples.

Results

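The genes described here encode the protein coats and tethers of the yeast secretory pathway. They comprise 33 of the 4238 orthologous gene pairs in the deposited table, and were chosen by name as subunits or close partners of the COPII coat (8 genes), the COPI coat (7 genes), the TRAPP tethering complexes (10 genes) and the exocyst (8 genes). All 33 were present and all 33 had enough reads to be tested. The table gives each gene by its systematic ORF name in S. cerevisiae. Common names and roles were added from general knowledge of yeast nomenclature and are not part of the deposited data.

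Secretory proteins leave the endoplasmic reticulum (ER) in vesicles formed by COPII, while COPI returns proteins and membrane from the Golgi to the ER. TRAPP complexes tether incoming vesicles at the Golgi and activate Rab GTPases, the small switches that direct vesicle traffic. The exocyst holds secretory vesicles at the plasma membrane of the growing bud before they fuse.

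Expression was measured by RNA sequencing in OZY27, a hybrid yeast with 1 genome from Saccharomyces cerevisiae, isogenic to W303 and carrying his3, leu2, lys2, trp1 and ura3, and 1 genome from S. bayanus, derived from strain CBS 4001 and carrying ade2, his3 and lys2. Both genomes therefore carry his3 and lys2, and every measurement comes from this 1 strain in 1 condition, log phase growth at 25°C in YPD, a rich medium with glucose. A library was made from each of 2 cultures, called biological replicates 1 and 2. Replicate 1 was read in 5 lanes (3 at UCB and 2 at UCR) and replicate 2 in 3 lanes (2 at UCB and 1 at UCR). Lanes are repeat runs of a library, so n = 2.

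The lanes held between 2350222 and 3159446 counted reads, 14707025 in all for replicate 1 and 8223099 for replicate 2. Each of the 33 genes had at least 968 reads over both alleles in replicate 1 and at least 499 in replicate 2, and no allele had fewer than 213 reads in a replicate.

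The design asks whether the 2 alleles of a gene are expressed unequally within the same cells. Among the coat and tether genes, differences were about as common as over all tested genes. The median absolute log2 ratio was 0.36 over the 33 genes and 0.37 over all tested genes. The alleles differed in 18 of 33 genes (54.5%), close to the 53.5% of all 4197 tested genes (edgeR quasi-likelihood test, adjusted p under 0.05). The S. cerevisiae allele was higher in 12 genes and the S. bayanus allele in 6, where 26.9% and 26.6% of all tested genes differed in these directions. Scaling each genome to its own total sets the typical gene to a ratio near 1. With 1 library size for both alleles, which puts the median log2 ratio of all tested genes at 0.11, the split was 7 and 8. Without the replicate block in the fit it was 0 and 2, and 866 of all tested genes differed. The UCB lanes alone gave 11 and 6, and the UCR lanes alone 13 and 6. The median log2 ratio of S. bayanus to S. cerevisiae was -0.14 over the 33 genes and -0.0029 over all tested genes.

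Differences of at least 1.5-fold were found in 3 of the 33 genes (9.09%), against 29.6% of all tested genes. These were the TRAPP subunit genes TRS20 and TRS33 and the COPI subunit gene RET2. The other 15 differences lay between 1.25-fold and 1.49-fold. Standard errors (SE) of the 33 log2 ratios ranged from 0.08 to 0.17. The direction was the same in all 8 lanes for 17 of the 18 genes. The exception, TRS31, had the same direction in 7 lanes. Lanes are repeat runs of the libraries that the test summed, so their agreement is no separate evidence. SAR1, SEC3, SEC16 and TRS23, which did not pass the test, also kept their direction in all 8 lanes.

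**Figure D1:**
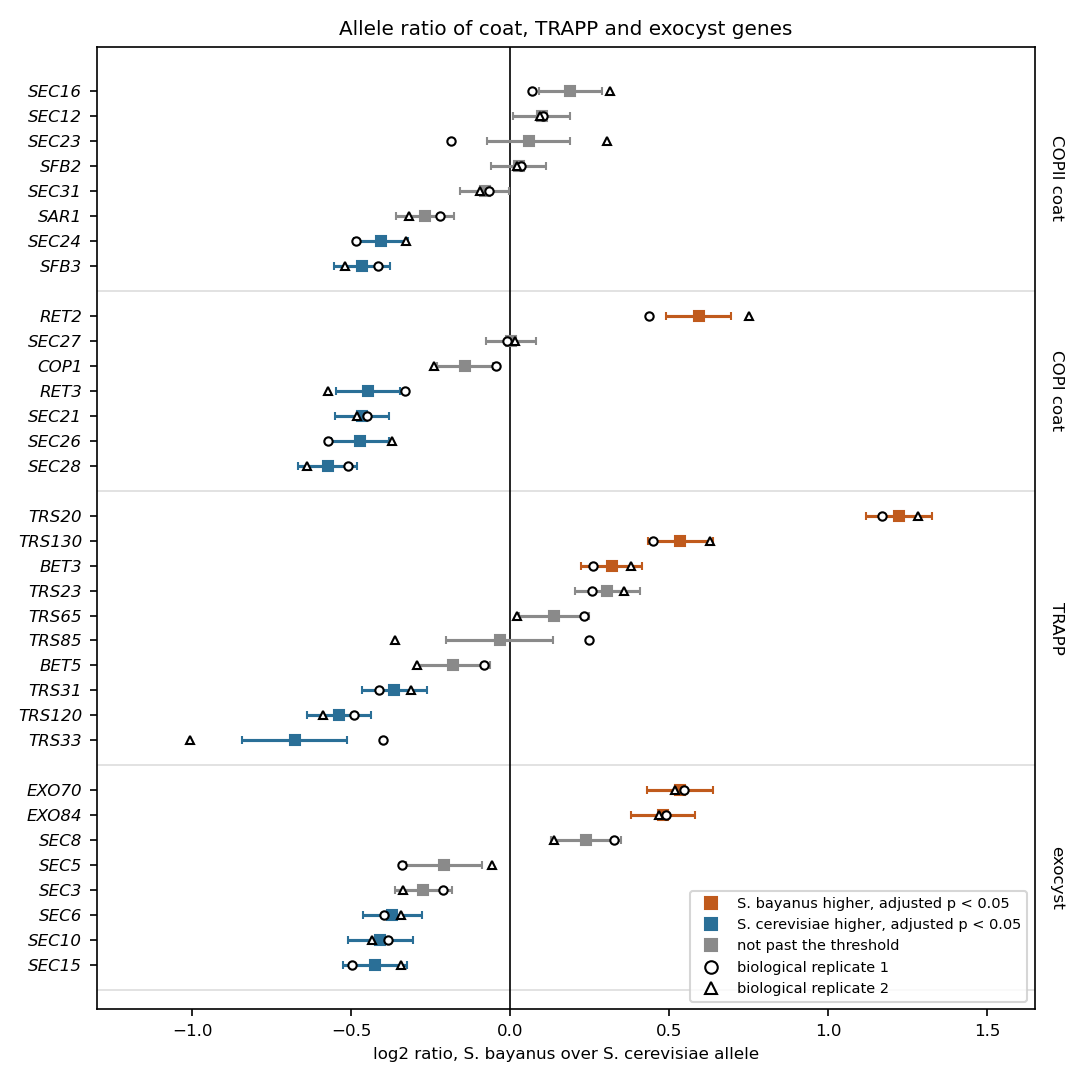
Log2 ratio of the S. bayanus to the S. cerevisiae allele (horizontal axis) for the 33 genes, grouped by complex. Squares with bars are the fitted ratio ± standard error, coloured by the test, and open circles and triangles are biological replicates 1 and 2. TRS20 lies apart from the other genes at 1.22, and 4 of the 5 COPI genes that differ lie on the S. cerevisiae side. Over all tested genes, 26.9% differed on the S. cerevisiae side and 26.6% on the S. bayanus side, and the COPI direction was not tested.

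Counted by complex, 2 of 8 COPII genes differed, 5 of 7 COPI genes, 6 of 10 TRAPP genes and 5 of 8 exocyst genes, where 53.5% of all tested genes differed. The median log2 ratio was -0.45 for COPI, -0.33 with 1 library size for both alleles and -0.32 with the trend on the GC difference of the orthologs removed. For the exocyst these values were -0.24, -0.13 and -0.09. The COPII median was near 0 and changed sign, at -0.03, 0.09 and -0.13. The TRAPP median was 0.05, 0.16 and 0.11, but 0.24 in replicate 1 and -0.13 in replicate 2. These are descriptions of short lists chosen with earlier results known, and the differences between complexes were not tested.

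In the COPII coat, both genes that differed encode proteins that select cargo. Sec24 is the main cargo adaptor of the inner coat and Sfb3 is its homolog, needed for export of a subset of cargo. SFB3 (YHR098C) had 2093 and 1392 S. bayanus reads in replicates 1 and 2 against 2632 and 1795 S. cerevisiae reads. The S. cerevisiae allele was higher in both cultures and in 8 of 8 lanes, at a log2 ratio of -0.47 (SE 0.09, edgeR adjusted p = 0.00927). SEC24 (YIL109C) had 4218 and 3243 S. bayanus reads against 5521 and 3638 S. cerevisiae reads, a log2 ratio of -0.41 (SE 0.08, edgeR adjusted p = 0.0125). With 1 library size for both alleles the SEC24 ratio was -0.29 and missed the threshold (edgeR, adjusted p = 0.0566). SFB2, a close paralog of SEC24, had a log2 ratio of 0.03 and did not pass the test (edgeR, adjusted p = 0.804). Reads shared between these homologs would be uncertain, although 84.9% to 95.5% of the bases of their S. cerevisiae genes were mappable.

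The rest of the COPII genes did not pass the test. SEC23, the partner of SEC24 in the inner coat, encodes the GTPase-activating protein of Sar1, which stimulates GTP hydrolysis. It had a log2 ratio of 0.06. SEC31, part of the outer cage, was at -0.08. SEC12, which loads Sar1 with GTP, was at 0.10 and SEC16, which organises the exit sites, at 0.19. SAR1, the GTPase that starts coat assembly, was at -0.27 and close to the threshold (edgeR, adjusted p = 0.0527). Only 42.8% of its bases were mappable, and its ratio depended on the setting. SAR1 passed the test without lane 1 at -0.29 (edgeR, adjusted p = 0.0452) and with UCR lanes alone at -0.34 (adjusted p = 0.0205). It was at -0.23 with UCB lanes alone (edgeR, adjusted p = 0.111), at -0.15 with 1 library size (adjusted p = 0.173) and at -0.19 with the GC trend removed (adjusted p = 0.105).

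Coatomer, the COPI coat, is a complex of 7 subunits that is recruited to Golgi membranes as a unit. The S. cerevisiae allele was higher for SEC28 (ε subunit), SEC26 (β), SEC21 (γ) and RET3 (ζ), at log2 ratios from -0.57 to -0.45. SEC28 (YIL076W) led this group. It had 1760 and 758 S. bayanus reads against 2370 and 1065 S. cerevisiae reads, a 1.49-fold difference with a log2 ratio of -0.57 and a standard error of 0.09 (edgeR, adjusted p = 0.00579). In all 4 genes the S. cerevisiae allele was higher in 8 of 8 lanes, which are repeat runs of the same libraries.

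RET2 (YFR051C), which encodes the δ subunit, was the only COPI gene that differed in the other direction. Its S. bayanus allele had 6313 and 5714 reads and its S. cerevisiae allele 4406 and 3066, a 1.51-fold difference with a log2 ratio of 0.59 and a standard error of 0.10 (edgeR, adjusted p = 0.00696). The log2 ratio was smaller in replicate 1, at 0.44, than in replicate 2, at 0.75, and the lanes of the cultures did not overlap. The GC content of RET2 is higher in S. bayanus by 8.30 percentage points, the widest gap among the 33 genes, and with the trend on GC difference removed the log2 ratio was 0.35 (edgeR, adjusted p = 0.00896). The genes of the α and β′ subunits, COP1 and SEC27, did not pass the test, at -0.14 and 0.0021.

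TRAPP held the largest ratios in both directions. TRS20 (YBR254C), a core subunit and the yeast counterpart of human sedlin, had 1115 and 582 S. bayanus reads against 462 and 213 S. cerevisiae reads. Its S. bayanus allele was 2.34-fold higher, at a log2 ratio of 1.22 (SE 0.10, edgeR adjusted p = 0.00113). The 8 lanes lay between 1.11 and 1.36, all far from 0, and the lane levels of the alleles did not overlap. With the trend on GC difference removed TRS20 was at 1.14.

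TRS33 (YOR115C), another core subunit gene, had 650 and 228 S. bayanus reads against 810 and 414 S. cerevisiae reads, a 1.60-fold higher S. cerevisiae allele with a log2 ratio of -0.68 and a standard error of 0.17 (edgeR, adjusted p = 0.0204). The size of the difference was not the same in the cultures, at -0.40 in replicate 1 and -1.01 in replicate 2. Without lane 2 the ratio was -0.63 and missed the threshold (edgeR, adjusted p = 0.0515).

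TRS120 and TRS130 encode the large subunits that mark the TRAPP II complex, and their alleles differed in opposite directions. TRS120 (YDR407C) had 614 and 334 S. bayanus reads against 814 and 453 S. cerevisiae reads, at a log2 ratio of -0.54 (SE 0.10, edgeR adjusted p = 0.00927). TRS130 (YMR218C) had 1061 and 579 S. bayanus reads against 734 and 338 S. cerevisiae reads, at 0.54 (SE 0.10, edgeR adjusted p = 0.0096). Each kept its direction in 8 of 8 lanes. TRS65, the third TRAPP II gene, was at 0.14, and TRS85, which encodes the subunit of TRAPP III needed for autophagy, was at -0.03, and neither passed the test.

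Of the remaining core genes, BET3 had a higher S. bayanus allele (log2 ratio 0.32) and TRS31 a higher S. cerevisiae allele (-0.36), while BET5 (-0.18) and TRS23 (0.31) did not pass. The calls of BET3 and TRS31 were close to the threshold, and both were lost with DESeq2 (adjusted p = 0.19 and 0.173). With 1 library size for both alleles TRS31 missed the threshold at -0.25 (edgeR, adjusted p = 0.101), while BET3 passed at 0.43 (adjusted p = 0.0267). BET3 was at 0.29 with UCB lanes alone (edgeR, adjusted p = 0.0611) and at 0.37 with UCR lanes alone (adjusted p = 0.0258), and missed the threshold without lane 3, 5 or 7, with adjusted p from 0.0528 to 0.0546. TRS31 was at -0.41 with UCB lanes alone (edgeR, adjusted p = 0.0505) and at -0.30 with UCR lanes alone (adjusted p = 0.106), and without lane 7 it was at -0.33 (adjusted p = 0.0596). TRS23 passed without lane 6 or lane 8, at 0.31 and 0.33 (edgeR, adjusted p = 0.0466 and 0.0445), but was at 0.24 without lane 4 (adjusted p = 0.107). It was at 0.37 with UCB lanes alone (edgeR, adjusted p = 0.0418) and at 0.19 with UCR lanes alone (adjusted p = 0.339). Its GC content is higher in S. bayanus by 7.41 points, and with the GC trend removed it was at 0.097 (edgeR, adjusted p = 0.445).

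The exocyst genes fell on both sides. EXO70 and EXO84 had the higher S. bayanus allele. EXO70 (YJL085W), whose product binds the plasma membrane, had 724 and 367 S. bayanus reads against 468 and 231 S. cerevisiae reads, at a log2 ratio of 0.53 (SE 0.10, edgeR adjusted p = 0.00987). EXO84 (YBR102C) had 944 and 422 reads against 636 and 276, at 0.48 (SE 0.10, edgeR adjusted p = 0.0124). In both genes the S. bayanus allele was higher in 8 of 8 lanes, and the cultures lay close together, at 0.55 and 0.52 for EXO70 and at 0.49 and 0.47 for EXO84. With DESeq2 both missed the threshold, at an adjusted p of 0.0528 for EXO70 and 0.0619 for EXO84.

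The S. cerevisiae allele was higher for SEC15, SEC10 and SEC6. SEC15 (YGL233W), whose product binds the Rab GTPase Sec4 on secretory vesicles, had 798 and 389 S. bayanus reads against 1067 and 446 S. cerevisiae reads, at a log2 ratio of -0.42 (SE 0.10, edgeR adjusted p = 0.0187). SEC10 was at -0.41 and SEC6 at -0.37. These 3 calls did not hold with 1 library size for both alleles (edgeR, adjusted p from 0.0602 to 0.0747) or with DESeq2 (adjusted p from 0.0871 to 0.153), and that of SEC10 was lost without lane 3 (-0.35, adjusted p = 0.0527). SEC3, whose product marks sites of exocytosis with Exo70, was at -0.27 and just outside the threshold (edgeR, adjusted p = 0.0503), and passed without lane 3, 6 or 8 at -0.32, -0.28 and -0.28. It was at -0.16 with 1 library size (edgeR, adjusted p = 0.162) and at -0.17 with the GC trend removed (adjusted p = 0.138). SEC5 (-0.21) and SEC8 (0.24) did not pass.

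Levels were compared between genes per length, as reads per kilobase of mappable length per 1000000 reads of that genome after scaling, summed over the alleles. COPI genes lay within 3.55-fold of each other, from 339 ± 7.31 for SEC21 to 1201 ± 379 for RET2 (SD, n = 2). Exocyst genes lay within 3.19-fold, from 53.0 ± 3.51 for SEC8 to 169 ± 15.6 for SEC3. COPII spanned 16.9-fold, from 135 ± 5.42 for SEC16 to 2277 ± 386 for SAR1, and TRAPP 9.23-fold, from 52.6 ± 2.68 for TRS120 to 485 ± 37.6 for BET3. The median level was 578 for COPI, 412 for COPII, 239 for TRAPP and 91.2 for the exocyst, against 184 over all tested genes.

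Within TRAPP the 6 core genes had levels from 237 to 485, and the 4 genes particular to TRAPP II or TRAPP III from 52.6 to 105, with no overlap. The core genes are also the shorter ones, at 480 to 852 bases in S. cerevisiae against 1683 to 3870. In COPI the neighbours SEC28, SEC27, COP1 and SEC26 overlapped between the cultures in the order of their levels, and so did EXO70, EXO84 and SEC15 in the exocyst, TRS31 and TRS33 in TRAPP, and SEC24 and SEC31 as well as SFB2 and SEC16 in COPII. Other neighbours within a complex did not overlap.

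**Figure D2:**
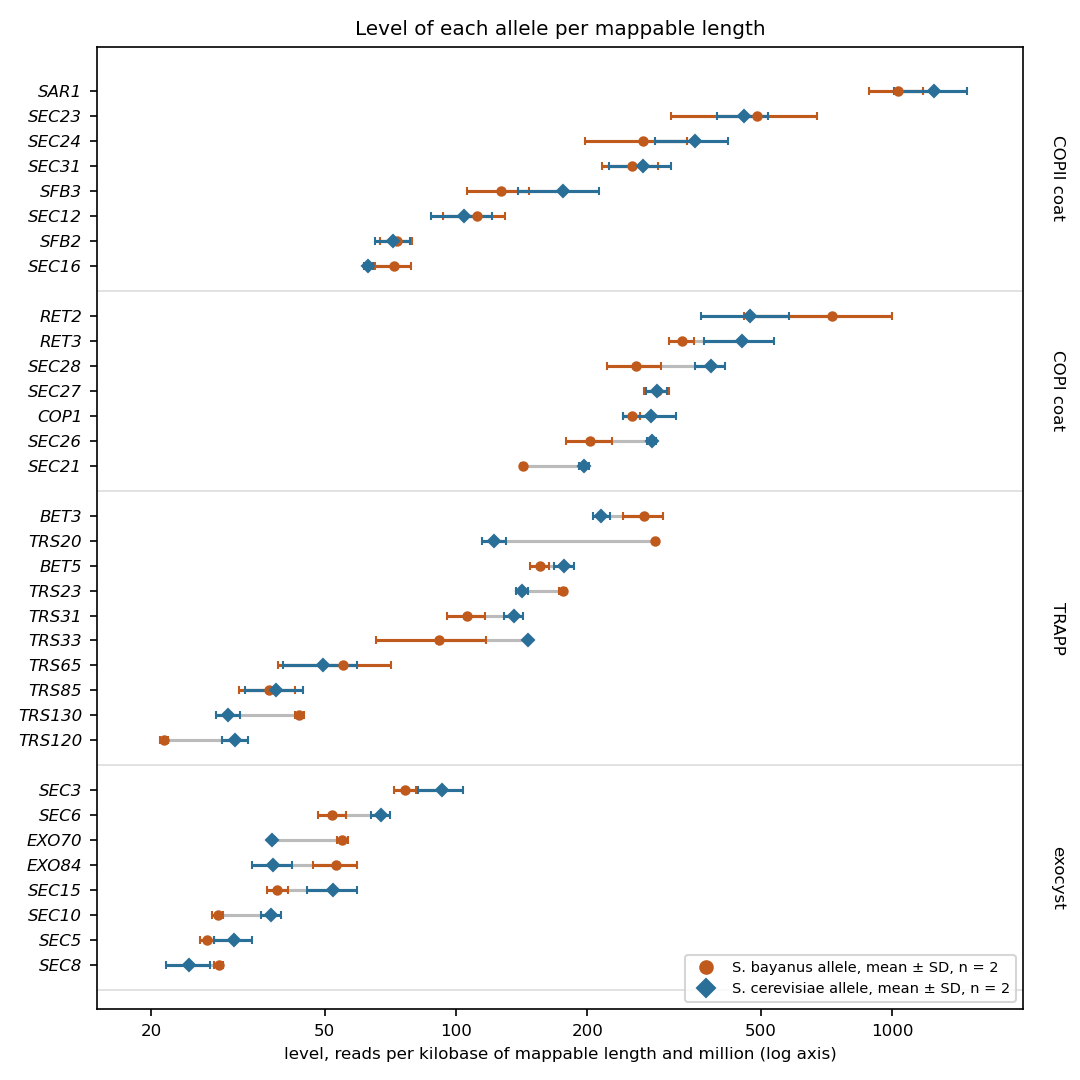
Level of the S. bayanus allele (circles) and the S. cerevisiae allele (diamonds) of each gene in reads per kilobase of mappable length per 1000000 reads on a log axis, mean ± SD of 2 cultures, with genes ordered by summed level in each complex. Core TRAPP genes lie above the TRAPP II and TRAPP III genes for both alleles, and the TRS20 alleles stand furthest apart.

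The order of subunits by mean level was compared between the genomes, although many neighbours overlapped between the cultures. In COPII all 8 genes held the same rank in both genomes, led by SAR1 at 1030 ± 147 for the S. bayanus and 1247 ± 238 for the S. cerevisiae allele. In TRAPP 2 of 10 ranks were shared. TRS20 ranked first among the S. bayanus alleles at 286 ± 2.00, overlapping BET3 at 250.2 and 289.7 in the cultures, and sixth among the S. cerevisiae alleles at 122 ± 7.61. TRS130 and TRS120 had levels of 43.7 ± 1.07 and 21.4 ± 0.475 for the S. bayanus alleles, and 30.0 ± 1.89 and 31.2 ± 2.21 for the S. cerevisiae alleles, whose replicate values overlapped.

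In COPI the S. bayanus alleles spanned 5.12-fold, from 142 ± 1.77 for SEC21 to 729 ± 272 for RET2. The S. cerevisiae alleles spanned 2.40-fold, from 196 ± 5.55 to 472 ± 107 for the same genes. The COPI genes whose ranks differed, SEC27, SEC28, COP1 and SEC26, overlapped with a neighbour in at least 1 of the genomes. In the exocyst SEC3 led both genomes, at 76.5 ± 4.50 and 92.7 ± 11.1. EXO70 and EXO84 followed among the S. bayanus alleles, at 54.9 ± 1.52 and 53.2 ± 6.18, and SEC6 and SEC15 among the S. cerevisiae alleles, at 67.2 ± 3.22 and 52.3 ± 6.85. Among the S. bayanus alleles EXO70, EXO84 and SEC6 overlapped. SEC15 lay below EXO70 and EXO84 for the S. bayanus alleles, at 38.9 ± 2.15, and above them for the S. cerevisiae alleles, with no overlap in either genome.

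The cultures were compared without a test, because each gave 1 library, and culture and library cannot be told apart. The lane ratios of the cultures did not overlap in 10 of 33 genes (30.3%), against 22.2% of all tested genes, and the ratio was the higher one in replicate 2 for 5 genes and in replicate 1 for 5. None of the 10 was among the 8 exocyst genes, which had the lowest median level of the complexes (91.2), and this absence was not tested. TRS33, described above, moved from -0.40 to -1.01, a shift of -0.61. TRS85 had a shift of the same size, from a log2 ratio of 0.25 in replicate 1 to -0.36 in replicate 2, on 611 and 261 S. bayanus reads and 488 and 304 S. cerevisiae reads. SEC23 moved the other way, from -0.19 to 0.31, on 5433 and 4865 S. bayanus reads and 5842 and 3552 S. cerevisiae reads. Lanes of SEC23 lay between -0.22 and -0.10 in replicate 1 and between 0.06 and 0.61 in replicate 2. The highest lane was lane 4, and the other lanes of replicate 2 were at 0.17 and 0.06. The GC content of SEC23 is higher in S. bayanus by 7.65 percentage points, and its part in this shift was not tested.

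**Figure D3:**
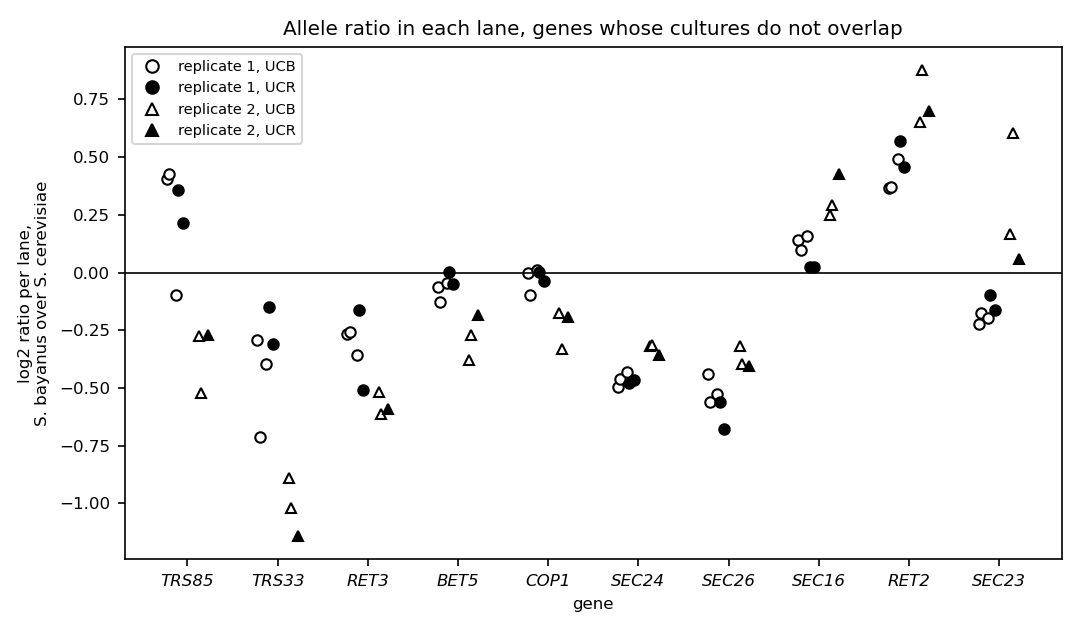
Log2 ratio of the S. bayanus to the S. cerevisiae allele in each of the 8 lanes for the 10 genes whose lanes do not overlap between biological replicates 1 (circles) and 2 (triangles), with filled symbols for lanes run at UCR. TRS85 and SEC23 lie on opposite sides of 0 in the cultures, apart from 1 lane of TRS85.

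The level of both alleles together was also compared between the cultures. Over all 4197 tested genes, 2062 had a higher level in replicate 2, and the median was 0.996. In COPII 7 of 8 genes had a higher level in replicate 2, with a median of 1.26-fold. SEC23 went from 778 to 1119 (1.44-fold), SEC24 from 524 to 718 (1.37-fold) and SFB3 from 261 to 343 (1.31-fold), and the exception was SEC12, at 0.796-fold. In COPI 6 of 7 genes had a higher level in replicate 2, with a median of 1.10-fold, led by RET2 from 933 to 1469 (1.57-fold). TRAPP and the exocyst had medians of 0.999 and 1.02. These levels are relative to the reads of each genome and do not measure RNA per cell. Changes in expression, in the mix of cells and in the library cannot be told apart in such cultures.

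**Figure D4:**
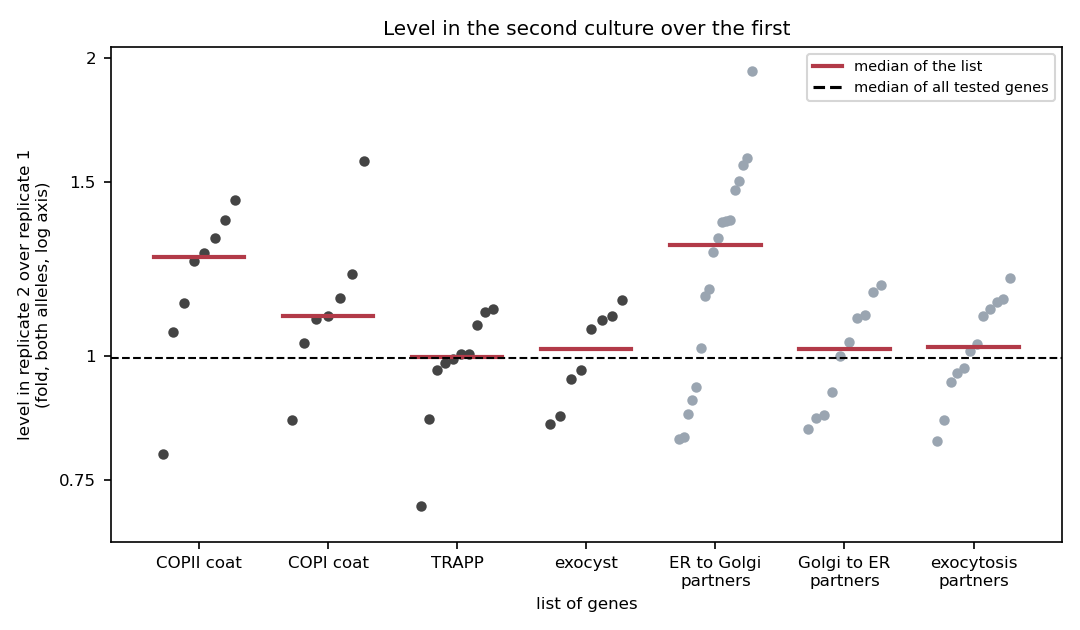
Level of both alleles in biological replicate 2 over replicate 1 (log axis) for each gene, grouped by list, with the list median in red and the median of all tested genes as a dashed line at 0.996. COPII genes and the ER to Golgi partners have medians of 1.26 and 1.29, and the medians of TRAPP, the exocyst and the other partner lists lie between 0.999 and 1.02.

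Partner genes of the same transport steps were listed by their textbook roles, 42 in all, of which 40 were in the table and tested. The genes of the Arf GTPases that recruit COPI, ARF1 and ARF2, were not analysed here. The alleles differed in 18 of these 40 genes (45.0%), with S. bayanus ahead in 7 and S. cerevisiae in 11, against 53.5%, 26.6% and 26.9% of all tested genes. The shares over all tested genes are the background for the 3 lists that follow as well.

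In the list of ER to Golgi transport, 5 of 18 genes differed, with S. bayanus ahead in 3 and S. cerevisiae in 2. The S. cerevisiae allele of BET1, a SNARE, the class of proteins that fuse vesicles with their target, was higher (log2 ratio -0.58, SE 0.12, edgeR adjusted p = 0.0127). The S. bayanus allele of YPT1, the Rab GTPase activated by TRAPP, was higher (0.48, SE 0.13, adjusted p = 0.0276), with a GC difference of 10.5 points. With the trend on GC difference removed, both missed the threshold, YPT1 at 0.12 (adjusted p = 0.228) and BET1 at -0.31 (adjusted p = 0.0695). BET1 also missed it with DESeq2 (adjusted p = 0.0666). In this list 13 of 18 genes had a higher level in replicate 2, at a median of 1.29-fold, against 2062 of all 4197 tested genes.

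In the list of Golgi to ER transport, 4 of 10 tested genes differed, with S. bayanus ahead in 1 and S. cerevisiae in 3. GLO3, which encodes an Arf GTPase-activating protein of COPI vesicles, had the higher S. bayanus allele (0.67, SE 0.08, edgeR adjusted p = 0.00264). TIP20, part of the tether for these vesicles at the ER, had the higher S. cerevisiae allele (-0.56, SE 0.11, adjusted p = 0.0105), and missed the threshold with DESeq2 (adjusted p = 0.0513).

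In the list of exocytosis, 9 of 12 genes differed, with S. bayanus ahead in 3 and S. cerevisiae in 6. The SNARE genes SSO2 of the plasma membrane and SNC1 of the vesicle had ratios in opposite directions, 0.83 (SE 0.11, edgeR adjusted p = 0.00319) and -0.81 (SE 0.12, adjusted p = 0.00428). Their GC differences were 7.66 and 5.62 points. With the trend on GC difference removed, SSO2 was at 0.60 (edgeR, adjusted p = 0.00171) and SNC1 at -0.98 (adjusted p = 0.00155). Each has a close paralog, and reads shared with it would make these ratios uncertain.

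The GC difference of the orthologs had a weak relation by rank to these ratios. Across the 33 genes, which are not independent, Spearman's rho of GC difference and log2 ratio was 0.237, against 0.249 across all tested genes. Pearson's correlation of the same values was 0.347, against 0.175 across all tested genes. Only 4 coat or tether genes had a GC difference above 5 points (RET2, SEC23, TRS23 and BET3). Their fitted ratios were above 0, but SEC23 and TRS23 did not pass the test. SEC23 was at -0.19 in replicate 1. The same counts over all tested genes were not made. With the trend on GC difference removed, 14 of the 18 genes still differed, all in the same direction, and the calls of BET3, TRS31, SEC6 and SEC10 were lost. SEC16 and SEC8 then passed, at 0.34 and 0.33 (edgeR, adjusted p = 0.0281 and 0.0359).

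**Figure D5:**
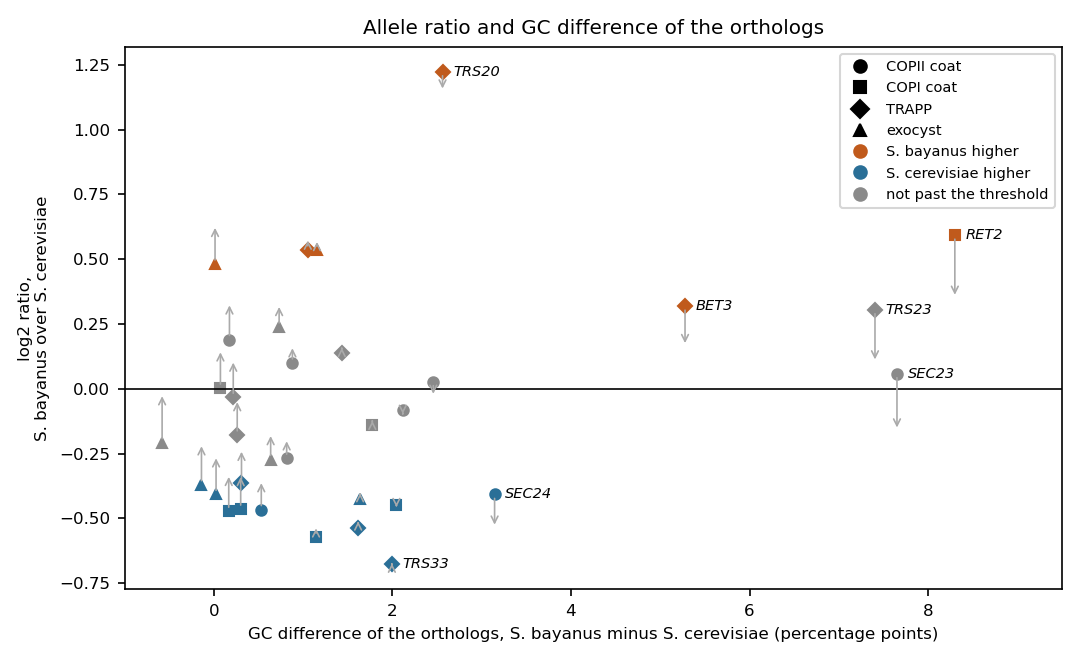
Log2 ratio of each gene (symbols by complex, colours by the test) against the GC difference of its orthologs in percentage points, with an arrow to the ratio after removal of the trend on GC difference. The 4 genes above 5 points move down by the correction, TRS20 stays above 1, and RET2 stays above 0.

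The authors' deposited table calls the S. bayanus allele higher in 6 of the 33 genes and the S. cerevisiae allele in 7, and 26 of the 33 calls are the same as in the edgeR test, with 0 in opposite directions. Only the authors' deposited table calls SEC16, and only the edgeR test called RET3, BET3, TRS31, SEC6, SEC10 and SEC15.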

How the data were processed

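The authors deposited a raw count for each ortholog, lane and allele. Mapping used Bowtie per the submitters' processing notes, while its version, the builds and the rule for reads shared by both genomes were not stated there. The authors' natural log ratios and p-values for each replicate, and their combined score of -1, 0 or 1, were read from the deposited table, as were the mappable lengths and GC differences. Another 4 deposited columns of replicate sums were not used. No sequences were used, and a planned search of promoters for motifs was not run.

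Lanes were summed per replicate and allele. Differences were tested across all 4197 genes with at least 10 reads in each replicate by edgeR 4.0.16 under R 4.3.3 with its quasi-likelihood test (TMM factors, replicate block, offset of mappable length, Benjamini-Hochberg adjustment); 41 genes had fewer reads. The alleles of a culture come from 1 library, which pairs them. Standard errors were derived from the F statistic. Replicate ratios had 0.5 added to each count. DESeq2 1.42.0 and other scalings, filters, sites and lanes were alternatives. Nothing beyond the labels says how separate the 2 cultures were, and PCR duplicates were not identified. The p-values measure each allele ratio against its spread between these 2 libraries, with the variance estimate shared across genes. Named genes were those that differed at least 1.5-fold, filled up to 8 by size, and the largest in each direction per complex. The genes and lists were chosen with earlier results of these data known.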

Additional observations from a re-analysis of the deposited data

Results flagged for a closer look

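Lane 4, a UCB lane of replicate 2, stood far from the other 7 lanes for a pair of genes. The log2 ratio of SEC23 was 0.61 in lane 4, and the next highest lane was at 0.17. The log2 ratio of TRS65 was -0.21 in lane 4, and the next lowest lane was at 0.13. Dixon's test at 95% flags about 1 in 20 groups by chance, and 33 genes were looked at. The 8 lanes pool 2 libraries, and for SEC23 the lanes of the cultures did not overlap. The spread used by the test therefore includes any difference between the cultures. Without lane 4 the SEC23 ratio was -0.03 and that of TRS65 0.22, and neither gene passed the test with or without it.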

How the results depend on the processing

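All 18 genes that differed kept their direction under every alternative run, 6 with the S. bayanus and 12 with the S. cerevisiae allele higher. Without the replicate block 2 genes passed with the S. bayanus allele higher (TRS20 and EXO70) and 0 with the S. cerevisiae allele higher, where 4 and 6 had an unadjusted p under 0.05 (edgeR), and 866 of all genes passed. DESeq2 called 3 and 8, and 1480 of all genes. With 1 library size for both alleles 8 and 7 passed, and with the GC trend removed 7 and 9. With each lane left out 5 to 7 and 11 to 13 passed, and 2042 to 2381 of all genes. Leaving out a whole replicate gives a value with no test. Ratios that changed sign belonged to genes that passed under none of them. SEC23 was at -0.043 with UCR lanes alone and -0.17 with the GC trend removed, and between -0.19 and 0.31 with a lane or replicate left out. SFB2 was at -0.020 with UCB lanes alone and -0.036 with the GC trend removed. SEC31 was at 0.035 and TRS85 at 0.078 with 1 library size. TRS85 was at 0.061 with UCR lanes alone, 0.12 with the GC trend removed, and between -0.36 and 0.25 with a lane or replicate left out. SEC27 was at -0.00084 with at least 50 reads and between -0.0098 and 0.022 with lanes left out. The causes were not tested. The ratios that did not pass were at most 1.24-fold, a size these reads and 2 libraries may not resolve.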
